A study of Mus musculus with 6 samples.

Results

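The genes described here run the sterol feedback loop of the cell: Srebf1 and Srebf2, which encode the sterol regulatory element-binding proteins (SREBPs), Scap, Insig1, Insig2, Mbtps1 and Mbtps2, which control them, and Stard4, a carrier of sterols that the loop itself regulates. They were chosen by name, with every probe set whose platform annotation gives exactly 1 gene, and make up 8 of the 18163 genes so annotated. A probe set is the group of short probes that an Affymetrix array uses to read a transcript. The members had 16 probe sets, and 5 of the 8 genes had more than 1.

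RNA came from whole adrenal glands of male mice aged 3 months, taken 54 h or 46 h after lights off, with 3 arrays for each time, called 1, B and C. All animals had the genotype Per2Brdm1/Cry1-/- on a mixed C57BL6x129Sv background: Per2Brdm1 is a mutant allele of the clock gene Per2, Cry1 is absent, and the study's title calls the double mutants clock deficient. They had spent 2 weeks in a light-dark cycle before constant darkness. Glands with a working clock were not analysed here, and the labels do not say how many animals stand behind an array or which.

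SREBPs are made as inactive precursors in the membrane of the endoplasmic reticulum. When sterols run low, the escort protein SCAP carries them in COPII vesicles to the Golgi, where the proteases encoded by Mbtps1 and Mbtps2 release the part that enters the nucleus. When sterols are plentiful, the INSIG proteins hold SCAP back. Nuclear SREBP, released when sterols run low, raises transcription of Insig1, Srebf2 and the cholesterol synthesis genes. The adrenal cortex turns cholesterol into steroid hormones and draws it from lipoproteins, stored esters and its own synthesis.

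The members' RefSeq promoter windows (build GRCm38.p6) run from 250 bases before to 50 bases after an annotated start site, and 7 of the 8 members had at least 1 such window. Those of Insig1 and Srebf2 are shown because both genes are known to respond to sterols. The 3 of Insig2 are shown because its probe sets differed between the times in opposite directions. No probe set is tied to a window. Capitals mark the letters searched for on both strands: the E-box CACGTG, the CCAAT box, the GC box GGGCGG, the core of the sterol regulatory element TCACNCCAC and its shortened form TCACNCCA, which overlaps the core and was added after the windows were read.
Insig1 promoter, chr5:28071162-28071461, plus strand: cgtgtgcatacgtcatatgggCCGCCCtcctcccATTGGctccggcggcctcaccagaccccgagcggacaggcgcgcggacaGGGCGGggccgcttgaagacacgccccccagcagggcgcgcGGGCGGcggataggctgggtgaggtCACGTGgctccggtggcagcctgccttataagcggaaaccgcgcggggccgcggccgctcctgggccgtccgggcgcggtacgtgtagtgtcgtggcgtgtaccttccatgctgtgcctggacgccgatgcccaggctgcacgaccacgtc
Srebf2 promoter, chr15:82147019-82147318, plus strand: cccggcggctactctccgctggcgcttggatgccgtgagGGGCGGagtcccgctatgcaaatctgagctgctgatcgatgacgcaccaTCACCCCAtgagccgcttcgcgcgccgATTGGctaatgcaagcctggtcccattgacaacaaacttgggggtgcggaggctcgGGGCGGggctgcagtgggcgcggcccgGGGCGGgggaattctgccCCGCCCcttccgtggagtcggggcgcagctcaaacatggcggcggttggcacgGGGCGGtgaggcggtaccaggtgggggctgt
Insig2 promoter at start site 1, chr1:121332540-121332839, minus strand: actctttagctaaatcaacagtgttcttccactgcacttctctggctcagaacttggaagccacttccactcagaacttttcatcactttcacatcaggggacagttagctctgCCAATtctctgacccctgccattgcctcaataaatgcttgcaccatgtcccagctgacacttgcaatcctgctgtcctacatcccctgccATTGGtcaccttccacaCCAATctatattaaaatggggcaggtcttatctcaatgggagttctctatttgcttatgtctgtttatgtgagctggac
Insig2 promoter at start site 2, chr1:121327975-121328274, minus strand: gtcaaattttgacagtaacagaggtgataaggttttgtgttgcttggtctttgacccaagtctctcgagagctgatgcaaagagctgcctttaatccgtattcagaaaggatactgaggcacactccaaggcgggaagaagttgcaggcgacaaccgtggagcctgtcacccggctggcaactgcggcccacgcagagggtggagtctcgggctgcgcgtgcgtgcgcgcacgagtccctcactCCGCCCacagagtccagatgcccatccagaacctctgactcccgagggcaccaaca
Insig2 promoter at start site 3, chr1:121327629-121327928, minus strand: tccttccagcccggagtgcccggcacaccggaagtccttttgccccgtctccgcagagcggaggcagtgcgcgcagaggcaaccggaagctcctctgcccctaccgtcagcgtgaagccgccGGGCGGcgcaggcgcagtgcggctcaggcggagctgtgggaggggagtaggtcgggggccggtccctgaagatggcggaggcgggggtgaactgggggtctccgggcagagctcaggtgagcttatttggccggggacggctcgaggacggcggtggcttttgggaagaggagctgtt

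The Insig1 window held an E-box that began 101 bases before the start site, a CCAAT box and 3 GC boxes. The Srebf2 window held the shortened sterol element 162 bases before the start site, a CCAAT box and 5 GC boxes. The 3 Insig2 windows differed in these letters: the first had 3 CCAAT boxes and no GC box, while the second and the third, which lay 4565 and 4911 bases downstream of it, had 1 GC box each and no CCAAT box. Of all 32851 windows of this length, 7.15% held an E-box, 37.4% a CCAAT box, 35.7% a GC box, 1.24% the sterol element core and 4.36% its shortened form. None of the windows of the 7 members held the core. These matches describe letters and do not show that a factor binds.

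No member changed past the test between the times. Insig1 and Stard4 were 1.32-fold and 1.34-fold higher at 54 h on average, and the brightest probe sets of the other 6 genes had log2 changes between -0.16 and 0.043. The deposited values are intensities in array units on a linear scale, taken as log2(intensity + 16) for the test, so a log2 change of a dim probe set is understated. Probe sets were tested if their mean level was above the 40th percentile, which left 26961, among them 14 of the 16 of the members. Of these 14, 0 passed limma's test at an adjusted p of 0.05, and 3 (21.4%) reached an unadjusted p of 0.05, of which 2 were higher and 1 was lower. Over all probe sets tested, 0.115% passed the adjusted test (0.0593% higher, 0.0556% lower) and 10.1% reached the unadjusted threshold (4.34% higher, 5.75% lower). The values at the 2 times did not overlap for 3 of the 14 (1 higher, 2 lower at 54 h), against 15.5% of all probe sets. Those 3 all belonged to Insig2.

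**Figure D1:**
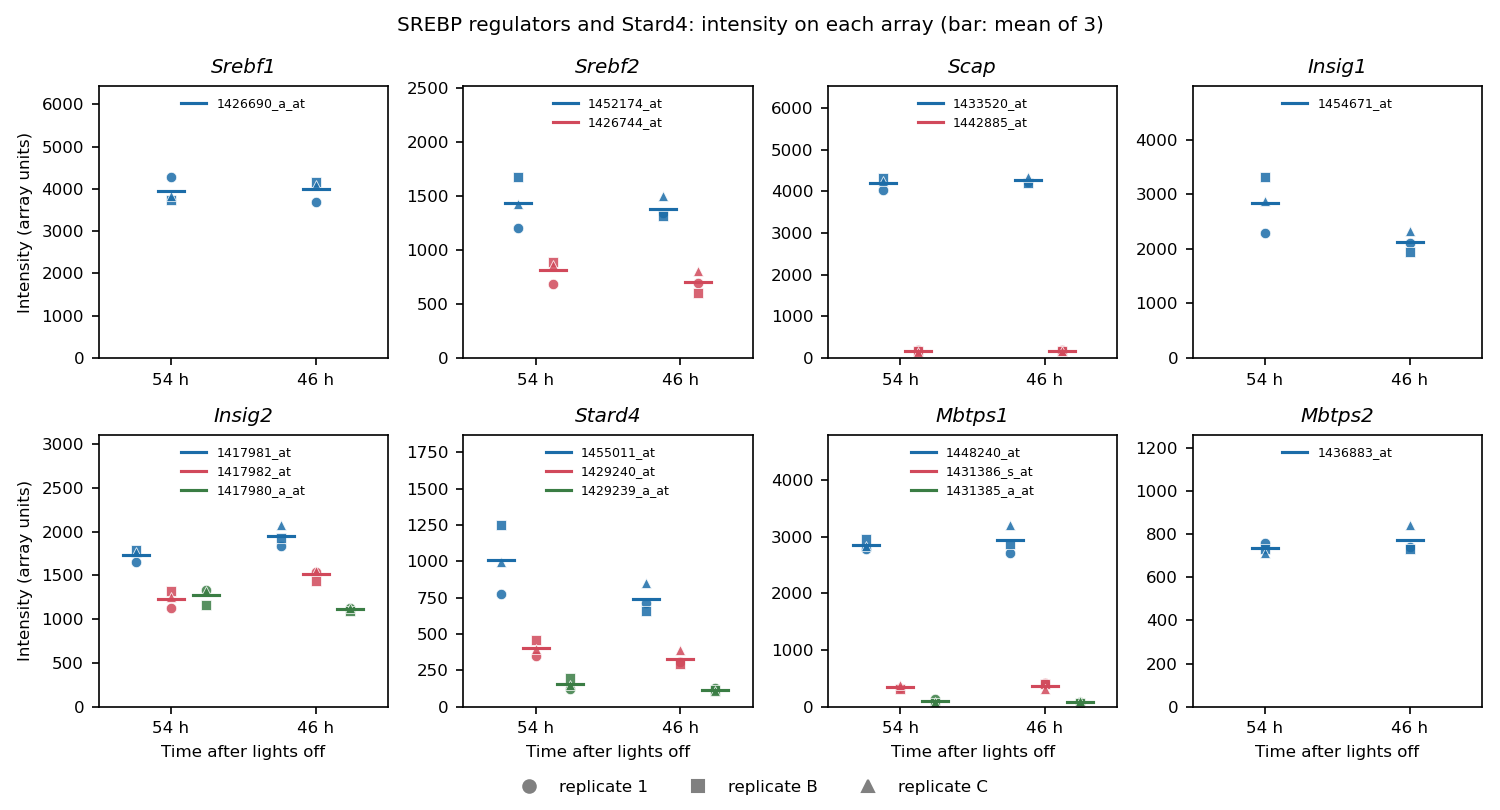
Intensity of each member probe set (array units, linear axis from 0) on the 3 arrays of 54 h and the 3 of 46 h, 1 panel per gene, with colour for the probe set, marker shape for the replicate and a bar at the mean of 3 arrays. Insig1 and the probe sets of Stard4 stand highest on 54h array B, at 3323 units for Insig1, while the points of Srebf1 and Scap at the 2 times overlap.

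Array medians lay between 204 and 217 units, under a maximum of 17879. The gland's own markers were bright on all arrays, from 4313 and 4444 units on average at 54 h and 46 h for the cortical factor Nr5a1 to 16880 and 17480 units for Star. In limma 0 of 7 cortical and 0 of 5 medullary markers passed the adjusted test (0.109% of all genes did). All 7 and all 5 were lower at 54 h, with median log2 changes of -0.0545 and -0.0738, against -0.0233 over all genes. This uniform direction depended on the processing. With arrays centred on their medians, with quantile normalization, or without 54h array 1, 2 cortical markers and 1 medullary marker were higher. At an unadjusted p of 0.05 in limma, 0 cortical markers and 1 medullary marker were lower (6.2% of all genes were). The number of arrays limits the precision of what follows. In RNA from a whole gland, fewer cells of a type and less RNA per cell cannot be told apart.

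Srebf1 encodes SREBP-1, whose isoforms mainly drive fatty acid synthesis. Its probe set read 4287, 3735 and 3830 units on arrays 1, B and C of 54 h, against 3687, 4166 and 4101 units on the same-named arrays of 46 h. Array 1 was the highest at 54 h and the lowest at 46 h, and the times overlapped. In limma the log2 change was -0.013 ± 0.072 SE with an adjusted p of 0.971, and the 95% confidence interval of the fold ran from 0.886 to 1.11. This probe set does not separate the isoforms SREBP-1a and SREBP-1c as far as the annotation says, since it names only the gene.

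Srebf2 encodes SREBP-2, the main activator of cholesterol synthesis. Its brighter probe set read 1206, 1680 and 1426 units on arrays 1, B and C of 54 h, against 1343, 1312 and 1498 units on the same-named arrays of 46 h. The 54 h arrays thus held both the lowest and the highest value. The dimmer probe set read 685, 890 and 858 units on arrays 1, B and C of 54 h, against 697, 605 and 807 units on the same-named arrays of 46 h. In both probe sets 54h array 1 lay below the other 54 h arrays, and the times overlapped. The log2 changes were 0.043 ± 0.12 SE and 0.20 ± 0.14 SE (limma adjusted p = 0.936 and 0.661), and the change of the brighter probe set was -0.075 without 54h array B.

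Scap encodes the escort that senses sterols and carries SREBP. Its bright probe set read 4032, 4312 and 4241 units on arrays 1, B and C of 54 h, against 4231, 4204 and 4354 units on the same-named arrays of 46 h. Its log2 values spanned 0.11 over the 6 arrays, the narrowest span of any member. In limma the log2 change was -0.024 ± 0.052 SE with an adjusted p of 0.917 and a fold interval from 0.908 to 1.07. The other Scap probe set was dim, at 157 to 194 units at 54 h and 169 to 184 units at 46 h, and had a log2 change of -0.014 ± 0.13 SE.

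Mbtps1 encodes the site-1 protease, which makes the first cut in the SREBP precursor. Its bright probe set read 2772, 2959 and 2838 units on arrays 1, B and C of 54 h, against 2716, 2877 and 3198 units on the same-named arrays of 46 h. The times overlapped, and the log2 change was -0.034 ± 0.073 SE (limma adjusted p = 0.916). A second Mbtps1 probe set had a log2 change of -0.10 ± 0.14 SE at 343 ± 35.8 units at 54 h and 371 ± 52.6 units at 46 h (SD, n = 3 each). The third averaged 97.4 units at 54 h and 81.2 units at 46 h, under the filter, and was not tested. Mbtps2 encodes the site-2 protease, which makes the cut inside the membrane. It read 760, 730 and 712 units on arrays 1, B and C of 54 h, against 740, 731 and 840 units on the same-named arrays of 46 h, which gave a log2 change of -0.067 ± 0.097 SE and an adjusted p of 0.864 in limma. Both genes thus differed between the times by less than the spread between arrays.

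For 6 of the 14 probe sets tested the 95% confidence interval lay inside a 1.25-fold change in either direction. They were those of Srebf1, Scap (both probe sets) and Mbtps2 and the brighter ones of Srebf2 and Mbtps1. For 11 of the 14 the interval lay inside a 1.5-fold change, and the exceptions were Insig1 and both Stard4 probe sets tested. All 14 intervals lay inside a 2-fold change.

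**Figure D2:**
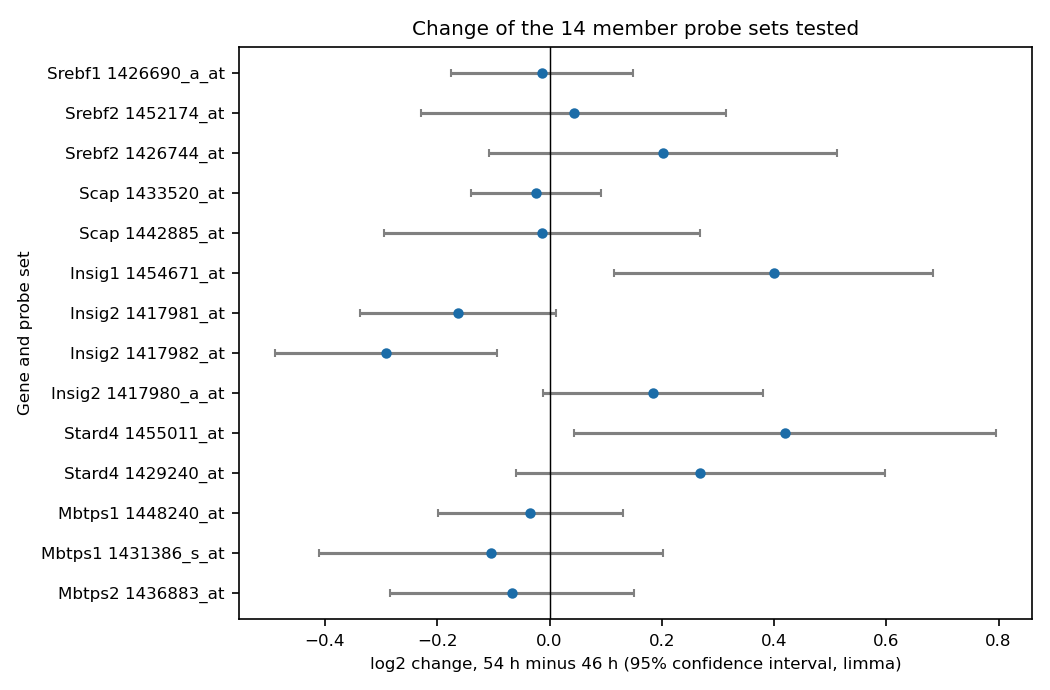
Log2 change from limma, 54 h minus 46 h (points), with its 95% confidence interval (bars), for the 14 member probe sets tested, 3 arrays per time. The intervals of Insig1, of 1 Stard4 probe set and of 1 Insig2 probe set do not cross 0, and none of the 3 passed after adjustment over 26961 probe sets.

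Insig1 encodes the retention protein whose own transcription follows SREBP activity. It read 2300, 3323 and 2880 units on arrays 1, B and C of 54 h, against 2103, 1948 and 2330 units on the same-named arrays of 46 h. Arrays B and C of 54 h lay above all 46 h arrays, and 54h array 1 lay just under 46h array C. The means were 2834 ± 513 units at 54 h and 2127 ± 192 units at 46 h (SD, n = 3 each). The log2 change was 0.40 ± 0.13 SE, with an unadjusted p of 0.0109 and an adjusted p of 0.333 in limma, and the interval of the fold ran from 1.08 to 1.61. Leaving out an array gave changes from 0.28, without 54h array B, to 0.54, without 54h array 1.

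Stard4 encodes a small START domain protein that carries cholesterol through the cytosol, and its transcription is known to rise when sterols are low. Its brightest probe set read 778, 1247 and 998 units on arrays 1, B and C of 54 h, against 711, 657 and 852 units on the same-named arrays of 46 h. As for Insig1, arrays B and C of 54 h were above all 46 h arrays and 54h array 1 was among them. The log2 change was 0.42 ± 0.17 SE, with an unadjusted p of 0.0324 and an adjusted p of 0.447 in limma. It was 0.25 without 54h array B and 0.59 without 54h array 1, and the unadjusted p was above 0.05 without 54h array B or C or 46h array 1 or B.

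The other Stard4 probe sets were dimmer. The second read 348, 460 and 393 units on arrays 1, B and C of 54 h, against 309, 291 and 389 units on the same-named arrays of 46 h, which gave a log2 change of 0.27 ± 0.15 SE and an adjusted p of 0.579 in limma. The third read 119, 196 and 151 units on arrays 1, B and C of 54 h, against 126, 116 and 110 units on the same-named arrays of 46 h. It lay under the filter and was not tested. In all 3 probe sets 54h array B was highest, and the changes of the 2 tested differed by 0.15 on the log2 scale (exact permutation test over arrays, two-sided p = 0.3).

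Insig2 encodes the second retention protein, which is not induced by SREBP. In mouse liver it is known to be transcribed as Insig2a and Insig2b, which differ in their first exon. The brightest of the 3 Insig2 probe sets read 1648, 1796 and 1764 units on arrays 1, B and C of 54 h, against 1833, 1933 and 2073 units on the same-named arrays of 46 h. The middle one read 1125, 1321 and 1259 units on arrays 1, B and C of 54 h, against 1545, 1442 and 1548 units on the same-named arrays of 46 h. Both were lower on every 54 h array than on any 46 h array.

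The dimmest Insig2 probe set differed the other way, with 1334, 1162 and 1326 units on arrays 1, B and C of 54 h, against 1129, 1097 and 1125 units on the same-named arrays of 46 h, so that every 54 h array lay above every 46 h array. Of all probe sets tested, 6.48% were higher and 9.05% lower without overlap. The log2 changes of the brightest, the middle and the dimmest probe set were -0.16 ± 0.08 SE, -0.29 ± 0.09 SE and 0.18 ± 0.09 SE, with limma adjusted p of 0.525, 0.315 and 0.521. The middle probe set had an unadjusted p of 0.00873 in limma.

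Set against each other on the same array, the Insig2 probe sets parted without overlap. For the pairs with the dimmest probe set this had to follow from the levels above. The dimmest lay higher, and the others lower, on every 54 h array than on any 46 h array. The permutation p of these pairs was therefore fixed in advance and adds no support. The log2 level of the middle probe set relative to the dimmest was -0.24, 0.18 and -0.07 on arrays 1, B and C of 54 h, against 0.45, 0.39 and 0.46 on the same-named arrays of 46 h. Their changes differed by -0.48 on the log2 scale (exact permutation test over arrays, two-sided p = 0.1, the smallest that 3 against 3 arrays can give). The difference between the changes of the brightest and the dimmest was -0.35 (exact permutation test, p = 0.1, the smallest possible). Of the 11 pairs of member probe sets of the same gene, 3 had relative levels that did not overlap between the times, against 13.8% of 30220 such pairs over all genes. They were the 3 pairs within Insig2, which share their probe sets, and the pairs with the dimmest probe set were bound to part. The annotation gives all 3 Insig2 probe sets the same target sequence record and names no transcript. The probe sets therefore cannot be assigned to the 3 start sites shown above. Use of those start sites was not measured, and what lies behind the opposite changes was not tested.

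Insig1, Stard4 and Srebf2 had a common order over the 54 h arrays, with B highest and 1 lowest in all of their probe sets. On the scale of log2 level minus the 46 h mean, Insig1 stood at 0.12, 0.64 and 0.44 on arrays 1, B and C of 54 h, the brightest Stard4 probe set at 0.08, 0.75 and 0.43, and the dimmer Srebf2 probe set at -0.027, 0.34 and 0.29. Among the 46 h arrays, array C was highest and array B lowest for these 3 probe sets. The order of the 54 h arrays was not particular to these genes. The brighter Scap probe set, the brightest Mbtps1 probe set and the brightest and middle Insig2 probe sets had it too. So did the summed level of the cortical markers, at 88120, 95840 and 91480 units on arrays 1, B and C of 54 h. The dimmest Insig2 probe set did not follow this order and stood at 0.25, 0.056 and 0.24 on arrays 1, B and C of 54 h. Srebf1, Mbtps2 and the dimmer Scap and Mbtps1 probe sets did not follow it either.

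The mean of the liver markers was also highest on 54h array B, as were 9 of the 10 that passed the filter; Cyp2e1 was lowest there. Of 14 liver genes listed, 12 had a probe set, 10 passed the filter (Fgb and Fgg did not), and 9 of the 10 were higher at 54 h, 8 of them at an unadjusted p of 0.05 in limma (4.11% of all genes were) and 2, Serpina1b and Cyp3a11, at an adjusted p of 0.05. Their mean stood 0.64, 1.06 and 0.82 higher than the average of 46 h on arrays 1, B and C of 54 h, and at 0.18, -0.37 and 0.19 on the same-named arrays of 46 h. The summed level of all 12 liver markers with a probe set, Fgb and Fgg included, was 17960 to 18970 units at 54 h. At 46 h it was 12210 to 16020 units, and no liver marker was at 0 on any array. Their part in the values of Insig1 and Stard4 was not tested. Of 5 adipose markers measured, 4 were higher at 54 h and 3 were so without overlap (Lep, Cidea and Ucp1, against 6.33% of all genes). The brightest of the 5, Adipoq, was lower, with a log2 change of -0.11 ± 0.11 SE and overlapping times. The summed level of the 5 was 16070 to 20860 units at 54 h and 13740 to 18120 units at 46 h. Of 6 macrophage markers, 3 lay lower without overlap (9.95% of all genes did), and the sum of the 6 was 13060 to 13220 units at 54 h and 14260 to 15940 units at 46 h. The part of these cells in the members' values was not tested either.

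**Figure D3:**
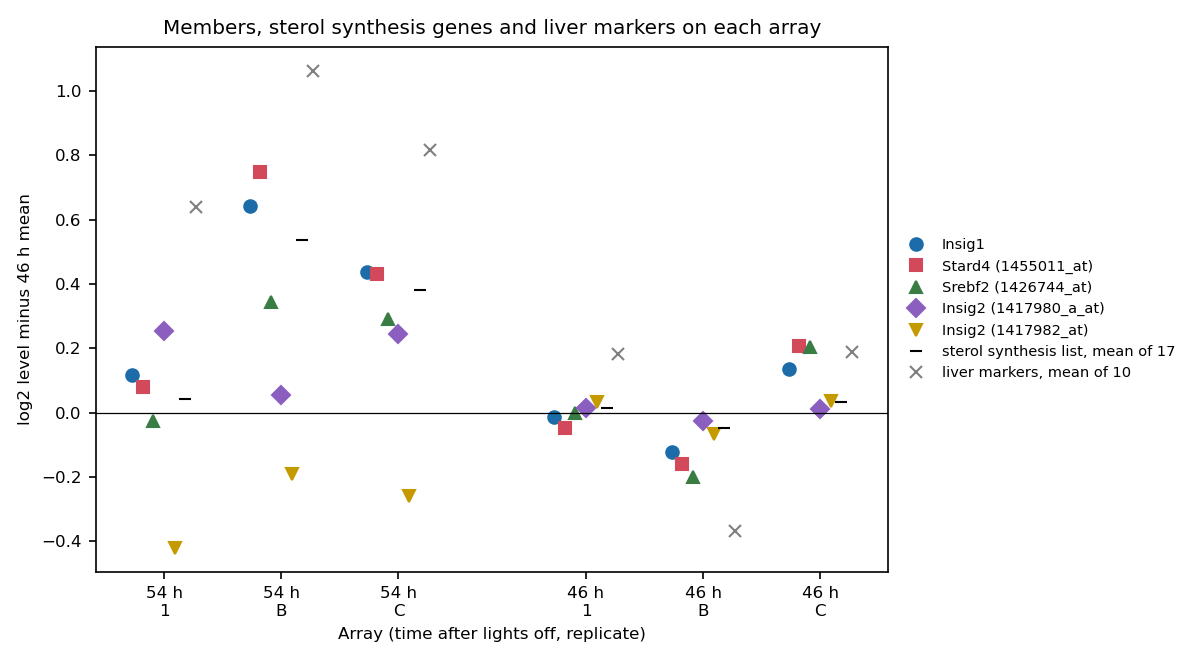
Log2 level minus the 46 h mean on each array, with 54 h arrays on the left and 46 h arrays on the right, for Insig1, Stard4, Srebf2 and 2 Insig2 probe sets, with the mean of 17 sterol synthesis genes and of 10 liver markers. Insig1, Stard4, Srebf2, the sterol synthesis mean and the liver mean were each highest on 54h array B, and the Insig2 probe sets lay on opposite sides of 0 on the 54 h arrays.

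The enzymes of the mevalonate and sterol pathway are the main targets of SREBP-2. Each gene was read from its brightest probe set, and 17 of 20 listed were measured. At 54 h 16 of the 17 were higher, 2 passed limma's adjusted test (0.109% of all 13780 genes did), and 6 were higher at an unadjusted p of 0.05, against 10.3% of all genes in either direction and 4.11% higher. The times did not overlap for 5 of the 17, all higher (6.33% of all genes were). The median log2 change was 0.27, against -0.023 over all genes, and it was 0.15 without 54h array B and 0.40 without 54h array 1. Hsd17b7, which reduces a ketone in sterol synthesis, averaged 1080 ± 183 units at 54 h and 468 ± 51.1 units at 46 h, and Idi1, the isopentenyl diphosphate isomerase, 5763 ± 405 and 3976 ± 230 units (SD, n = 3 each). Their log2 changes of 1.17 and 0.53 passed (limma adjusted p = 0.0288 for both). Pmvk and Cyp51 came next, with 0.47 ± 0.12 SE and 0.55 ± 0.14 SE, and did not pass (limma adjusted p = 0.211 and 0.217). The mean of the 17 stood 0.041, 0.54 and 0.38 higher than the average of 46 h on arrays 1, B and C of 54 h, so that 54h array 1 was near the 46 h level as it was for Insig1 and Stard4. On 54h array 1 Hsd17b7 and Idi1 stood 0.91 and 0.50 above the 46 h mean. The Hsd17b7 values rest on 1 probe set of the x_at type, whose probes may also match other transcripts. Other probe sets of Hsd17b7, if any, were not compared.

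Fatty acid synthesis genes are the main targets of SREBP-1. Their mean stood 0.106, 0.10 and 0.08 higher than the average of 46 h on arrays 1, B and C of 54 h. All 12 listed were measured, 0 passed limma's adjusted test, an unadjusted p of 0.05 was reached by 5 that were higher and 1 that was lower (4.11% and 6.2% of all genes), and the median log2 change was 0.072. Acaca, the acetyl-CoA carboxylase, had a log2 change of 0.39 ± 0.07 SE and stood 0.42, 0.40 and 0.33 higher than the average of 46 h on arrays 1, B and C of 54 h. Acss2, an acetyl-CoA synthetase, stood at 0.60, 0.31 and 0.34, and Fasn, the fatty acid synthase, at 0.14, 0.24 and 0.23. Gpam, which starts glycerolipid synthesis, was lower at 54 h, its log2 change being -0.42 ± 0.10 SE with an adjusted p of 0.180 in limma. In Acaca and Acss2, 54h array 1 was thus the highest array. In Fasn and several others of the list, 54h array B was the highest of the 54 h arrays, as in the sterol synthesis mean.

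**Figure D4:**
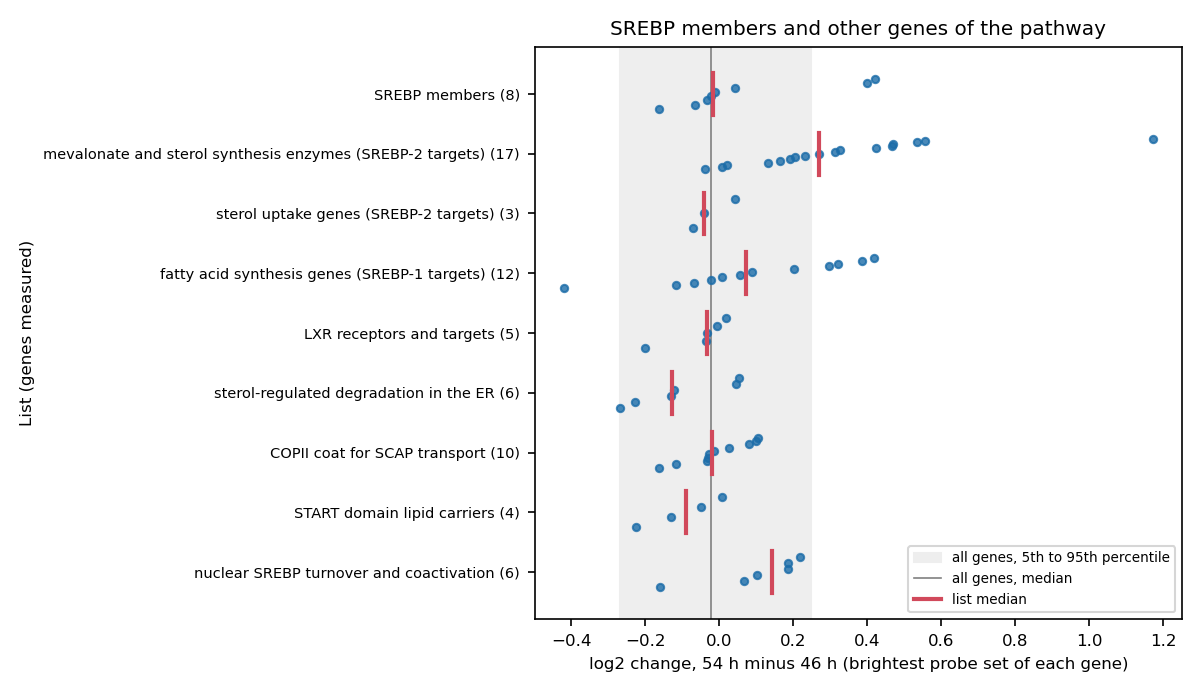
Log2 change, 54 h minus 46 h, of each gene (points, brightest probe set) in the SREBP members and 8 other lists, with the list median (red bar), the median of all 13780 genes (grey line) and their 5th to 95th percentile (-0.27 to 0.25, grey band). Insig1 and Stard4 lie to the right of the band, the other 6 members lie inside it, and the sterol synthesis genes have a median of 0.27.

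The sterol uptake, LXR and COPII lists had median log2 changes of -0.042, -0.033 and -0.021, against -0.023 over all genes. Of the sterol uptake genes, 3 of 5 were measured, the lysosomal cholesterol transporters Npc1 and Npc2 and the sterol-regulated Tmem97, with log2 changes of -0.042, -0.072 and 0.042. Of 6 genes linked to the receptors LXR, which sense oxysterols, 5 were measured and 0 reached an unadjusted p of 0.05 in limma (10.3% of all genes did). The cholesterol exporter Abca1 had -0.20 ± 0.11 SE, Abcg1 -0.033, the ubiquitin ligase Mylip -0.038 and Lpcat3 0.017. Of 10 COPII coat genes, which package SCAP with its cargo, 1 reached an unadjusted p of 0.05 in limma, near the 10.3% of all genes that did. This was Sec13, with -0.16 ± 0.07 SE, while Sec24b, Sec23b and Sec23a had -0.12, 0.10 and 0.099. None of these 18 genes passed the adjusted test.

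Genes listed for sterol-regulated degradation in the endoplasmic reticulum, INSIG included as a substrate, had a median log2 change of -0.13. Of 6 measured out of 9, 4 were lower at 54 h, 3 of them without overlap (9.95% of all genes were), and 0 passed limma's adjusted test. The membrane scaffold Erlin1 averaged 1423 ± 55.0 units at 54 h and 1669 ± 24.6 units at 46 h (SD, n = 3 each), and its log2 change was -0.23 ± 0.07 SE with an adjusted p of 0.335 in limma. Its partner Erlin2 had -0.12 ± 0.07 SE and the ubiquitin ligase Rnf139 -0.13 ± 0.08 SE. Ubxn8 had -0.27 ± 0.10 SE and was 1 of the 3 without overlap. It is an endoplasmic reticulum protein not established in sterol-regulated degradation, yet it counts in the median and the counts of this list. The 2 genes that were higher, Faf2 and Syvn1, had 0.0537 and 0.0435, with overlapping times. Among 6 genes of nuclear SREBP turnover and coactivation, with a median of 0.14, 0 passed the adjusted test. Of the 6, 1 was higher at an unadjusted p of 0.05 in limma (4.11% of all genes were). This was Lpin1, which encodes the phosphatase lipin 1 (0.22 ± 0.07 SE, limma adjusted p = 0.334). The coactivator Crebbp had 0.18, the deacetylase Sirt1 0.19 and Fbxw7, which marks nuclear SREBP for degradation, -0.16.

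The other START domain carriers had a median log2 change of -0.091. Star, which delivers cholesterol into mitochondria for steroid synthesis, had a log2 change of -0.051 ± 0.030 SE at 16880 units at 54 h and 17480 units at 46 h, close to the maximum of these arrays. The endosomal Stard3 had -0.13 ± 0.09 SE, Stard5 0.0069 ± 0.11 SE and Stard6 -0.23 ± 0.18 SE. Of the 4, 0 reached an unadjusted p of 0.05 in limma (10.3% of all genes did). Whether Stard4 differed from them was not tested.

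The genes most like Insig1 were found by the mean absolute difference between log2 values, each centred on its mean over the 6 arrays, among 23203 probe sets that named 1 gene and passed the filter. The nearest were Aacs, which activates acetoacetate (0.040), Lss, the lanosterol synthase (0.040), Pmvk, the phosphomevalonate kinase (0.043), Cryba4, a crystallin (0.047), and Sc5d, the sterol C5 desaturase (0.052). The brightest Stard4 probe set came directly after them, at 0.053. Lss and Sc5d were this near by a dimmer probe set, with log2 changes of 0.44 and 0.44. Their brightest probe sets, read in the sterol synthesis list, had 0.27 and 0.19. Among the 46 h arrays that of Lss was highest on array B, where Insig1 was lowest. The nearest to Stard4 were Tiparp, an ADP-ribosyltransferase (0.037), Cryba4 (0.049), Sc5d (0.051), Insig1 (0.053) and the homeobox gene Meis2 (0.058). By the same measure the Srebf2 probe sets lay at 0.18 and 0.099 from Insig1 and that of Srebf1 at 0.27. With 6 arrays such nearness is a description of these arrays.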

How the data were processed

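The authors deposited, for each array, 1 linear intensity per probe set; the summary method, background correction and normalization are not given in the sources used here. Of 45001 probe sets, 64 controls, 1 without values and 1 with a damaged value were left out. Probe sets were named through the platform annotation, and the gene ID of 34644 of the 34848 probe sets naming 1 gene was found in a RefSeq table. Array medians differed by 0.0728 on the log2 scale, under a limit of 0.1, so values were not normalized further. The comparison of 54 h with 46 h was fitted over all 26961 probe sets passing the filter in limma 3.58.1 (R 4.3.3; lmFit, eBayes with an intensity trend, two-sided, Benjamini-Hochberg adjustment) and tested on simulated data. Since nothing says that the arrays of a time come from separate animals, p-values reflect only array-to-array spread, possibly technical. The rule for naming genes was: all member probe sets; in each other list up to 4 genes with the smallest p, plus Fasn and Star; and the 5 nearest to Insig1 and Stard4. Members and lists were chosen with earlier results of these data known. Some listed genes are not reported here. Tables and plots used Python 3.11.15.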

Additional observations from a re-analysis of the deposited data

How the results depend on the processing

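No member probe set passed the adjusted test (0 of those tested) under any of the 15 alternatives run: quantile normalization, centring on medians, offsets of 1 and 64, no filter, a filter at the 60th percentile, no trend, a robust fit, the replicate letter as a block, and each array left out. The count at an unadjusted p of 0.05, 3 as reported, was 5 with quantile normalization and 2 to 4 without single arrays. Insig1 and the middle Insig2 probe set reached that level in all 15, the brightest Stard4 probe set in 11. Of 209 values of single member probe sets under alternatives, 197 kept their direction and 12 turned it. With centring on medians these were Srebf1 at 0.014 and Scap at 0.0033 and 0.013. Without single arrays the range was -0.073 to 0.026 for Srebf1, -0.075 to 0.16 for the brighter Srebf2 probe set, -0.044 to 0.0045 and -0.083 to 0.057 for Scap and -0.087 to 0.030 for the brightest Mbtps1 probe set. Over all probe sets 31 passed, against 47 with quantile normalization, 50 with centring, 48 with the filter at the 60th percentile, 3 with no trend, 61 with a robust fit and 2 to 66 without single arrays (66, 61 and 2 without 54h arrays 1, B and C, 2 and 18 without 46h arrays 1 and B); the cause was not tested. The replicate block gave 45, and 3 member probe sets at an unadjusted p of 0.05. Deviations from the mean of each time showed no pairing by letter. Those of arrays with the same letter correlated at -0.060, -0.41 and -0.49, and no array correlated best with its own letter. With 3 arrays per time such deviations depend on each other. Whether the letters mark a shared batch or handling was not tested.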

Other observations

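A further probe set names both Yy2 and Mbtps2 and was therefore left out of the members. Its level was 90.3, 106 and 101 units on arrays 1, B and C of 54 h, against 103, 109 and 129 units on the same-named arrays of 46 h, under the filter on low values.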
